A study of Mus musculus with 9 samples.

Results

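The 9 genes described here, *Cd79a*, *Cd79b*, *Blk*, *Ms4a1*, *Cr2*, *Fcer2a*, *Cd22*, *Cd37* and *Pax5*, mark the surface and the identity of B cells. They were found as the probes, other than control spots, whose accession belongs to one of these mouse genes. This gave 14 probes of 56601 tested, and 9 genes of the 22909 that could be named. 6 genes had a single probe each, whereas *Cd22* and *Cr2* had 3 each and *Cd37* had 2. For each gene, the probe with the highest mean log2 signal over all arrays stands for the gene unless another is named. Each of these 9 probes exceeded background clearly on every array, so the levels described below are measured levels and not bounds.

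The samples were left lungs of male mice harvested at day 21 after surgery, which the mice underwent at 8 to 12 weeks of age. In both allograft groups the left lung of a C57BL/10 donor was placed into a C57BL/6 recipient, strains that differ in minor histocompatibility antigens. The 3 OB grafts had obliterative bronchiolitis by pathology, the fibrotic closure of small airways that follows lung transplantation, and the 3 non-OB grafts had received the same operation without developing it. The 3 sham lungs came from mice with a thoracotomy and no transplant, and the labels give the C57BL/10 donor and the C57BL/6 recipient for these as well, although the clustering shown in the study names sham 1 as C57BL/10 and the other sham lungs as C57BL/6. One array measured each lung. The study speculates that a graft holds cells of both donor and recipient, which was not measured here. Each lung was divided between pathology and gene profiling, so the RNA did not come from the tissue that was graded.

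A B cell recognises antigen through membrane immunoglobulin, which signals through the paired proteins CD79a and CD79b and through Src-family kinases such as BLK. CD20, the product of *Ms4a1*, and the receptors CD21 and CD23, products of *Cr2* and *Fcer2a*, are carried by mature B cells, while the lectin CD22 and the tetraspanin CD37 restrain or organise signalling at the membrane. PAX5 is the transcription factor that holds cells in the B lineage and is lost when they turn into plasma cells. In inflamed lungs, B cells can gather with T cells and dendritic cells in lymphoid aggregates around airways and vessels.

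None of the 9 B-cell genes was called in any of the 3 comparisons. A gene was called against sham with an adjusted p under 0.05 in limma and a change of at least 2-fold, and in OB against non-OB with the adjusted p alone. By these rules 7.55% of all genes were called in OB against sham, 3.65% in non-OB against sham and 0% in OB against non-OB. Without adjustment, 0 of the 9 genes had a p under 0.05 in limma in any comparison, against 25.9%, 21.7% and 2.25% of all genes. The count by the methods' t-test was also 0 of the 9 genes in each comparison, with the fold threshold against sham, before and after Benjamini-Hochberg adjustment. In no comparison were the groups of a B-cell gene fully separated, whereas 43.3% of all genes had groups that did not overlap in OB against sham, 34.4% in non-OB against sham and 5.02% in OB against non-OB. The median log2 change of the 9 genes was -0.05 in OB against sham, beside -0.05 for all genes taken at 1 probe each, 0.26 in non-OB against sham, beside -0.01, and -0.21 in OB against non-OB, beside -0.04. Single lungs decided the sign of these medians, which was 0.40 without OB 1 and 0.21 without sham 3 in OB against sham, -0.19 without sham 1 and -0.11 without non-OB 3 in non-OB against sham, and 0.14 without OB 1 and 0.06 without non-OB 3 in OB against non-OB. The first pair of comparisons shares the sham arrays and the last shares its arrays with both. The study also stained sections for B220, a B-cell protein. It reports positive lymphocytes around OB bronchi with polyps, qualitatively weaker staining in non-OB and none in sham. Staining shows protein at bronchi, whereas the arrays measured RNA of homogenised lung tissue, so these are different measures.

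**Figure D1:**
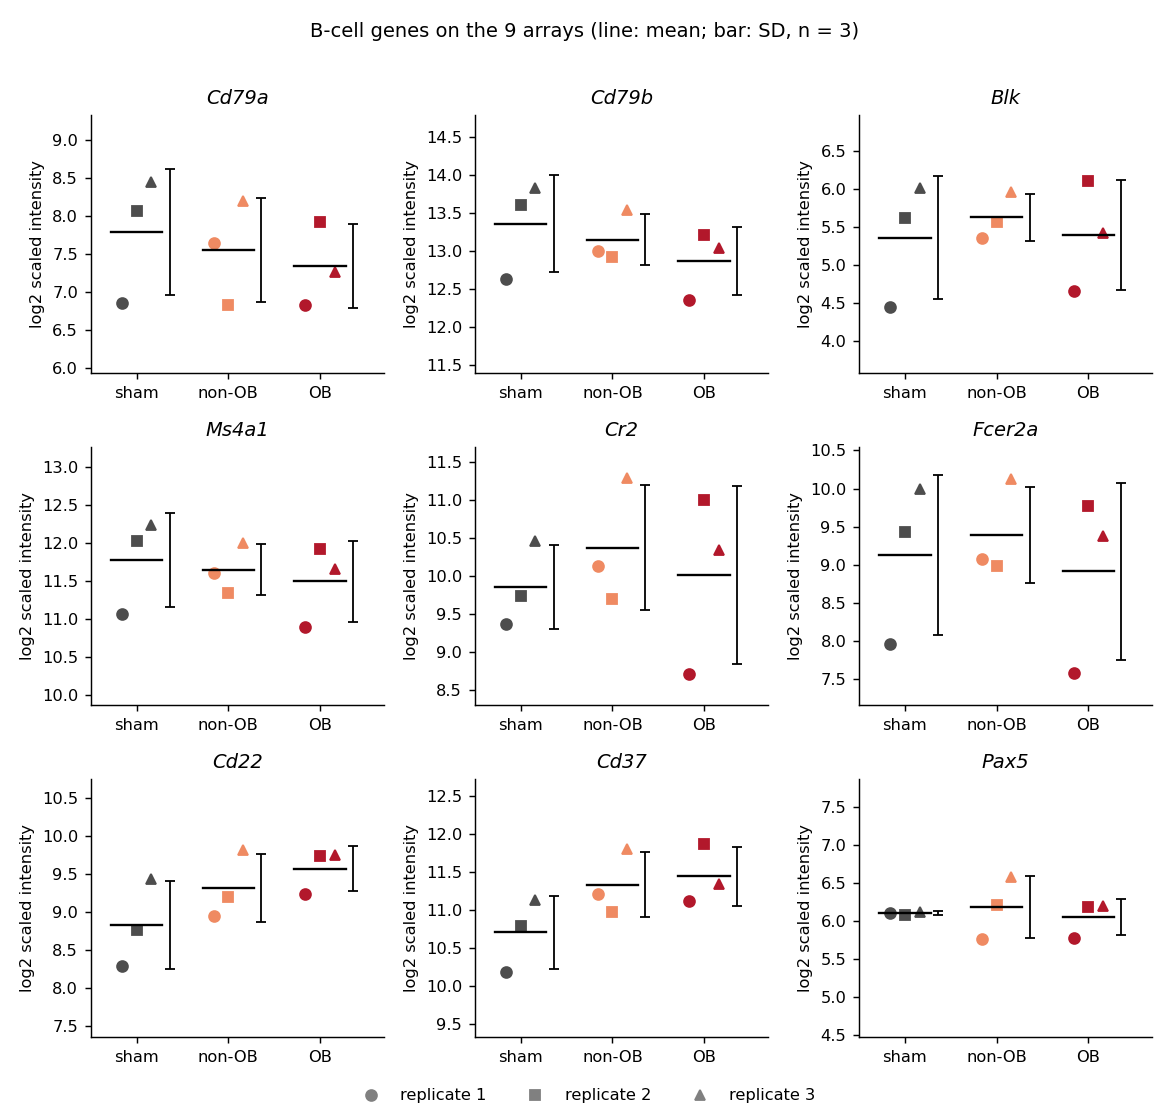
The log2 scaled intensity of the 9 B-cell genes on each array, with the sham, non-OB and OB groups along the horizontal axis, 1 point for each lung, the group mean as a line and the SD as a bar. The groups overlap in every panel, and sham 1 and OB 1 lie lowest of their groups for most genes.

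*Cd79a* and *Cd79b* encode the signalling pair of the antigen receptor. The log2 signal of *Cd79b* was 12.35, 13.20 and 13.04 in the OB grafts, 12.99, 12.92 and 13.53 in the non-OB grafts and 12.63, 13.60 and 13.83 in the sham lungs. Its highest values were in sham lungs, and the lowest sham lung was below every non-OB graft. The group means were 12.87 ± 0.45 (SD, n = 3) in OB, 13.15 ± 0.33 in non-OB and 13.35 ± 0.64 in sham, and the log2 change of OB against sham was -0.49 (95% interval -1.34 to 0.37, adjusted p = 0.474 in limma). A rise of 2-fold in OB lies outside this interval, and a fall of 2-fold lies inside it. *Cd79a* gave 6.83, 7.92 and 7.26 in OB, 7.64, 6.82 and 8.19 in non-OB and 6.85, 8.06 and 8.44 in sham. As for its partner, the upper pair of sham lungs lay above all OB grafts and sham 1 lay within them. The log2 change of *Cd79a* was -0.45 in OB against sham (-1.63 to 0.73, adjusted p = 0.637) and -0.24 in non-OB against sham (-1.41 to 0.94, adjusted p = 0.82).

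*Blk* encodes a Src-family kinase found mostly in B cells. Its log2 signal was 4.66, 6.10 and 5.42 in OB, 5.35, 5.56 and 5.96 in non-OB and 4.45, 5.61 and 6.01 in sham. The highest graft was OB 2 and the lowest lung was sham 1, and the non-OB grafts lay inside the span of the other groups. The changes were 0.04 in OB against sham (95% interval -1.07 to 1.14) and 0.27 in non-OB against sham (-0.84 to 1.37).

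*Ms4a1* encodes CD20, the target of B-cell depleting antibodies. Its log2 signal was 10.90, 11.92 and 11.66 in OB, 11.61, 11.34 and 12.00 in non-OB and 11.07, 12.03 and 12.23 in sham. Sham 2 and sham 3 lay above every graft, and OB 1 and sham 1 lay below every non-OB graft. OB against sham gave -0.29 (95% interval -1.17 to 0.60, adjusted p = 0.696 in limma), non-OB against sham gave -0.13 (-1.01 to 0.76) and OB against non-OB gave -0.16 (-1.05 to 0.73).

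*Cr2* and *Fcer2a* encode the complement receptor CD21 and the low-affinity IgE receptor CD23, which mature follicular B cells carry. Follicular dendritic cells also carry both receptors. *Cr2* gave 8.71, 10.99 and 10.33 in OB, 10.13, 9.69 and 11.28 in non-OB and 9.37, 9.73 and 10.45 in sham. *Fcer2a* gave 7.58, 9.77 and 9.38 in OB, 9.07, 8.98 and 10.12 in non-OB and 7.96, 9.43 and 10.00 in sham. Both genes were lowest in OB 1 of all lungs and highest in non-OB 3. Their SD within the OB group was 1.17 for each on the log2 scale, and the intervals were correspondingly wide, -1.31 to 1.63 around a change of 0.16 for *Cr2* and -1.84 to 1.39 around -0.22 for *Fcer2a* in OB against sham. The other *Cr2* probes gave 0.34 and 0.25 in the same comparison. In OB against non-OB the changes were -0.36 for *Cr2* and -0.48 for *Fcer2a*, and neither interval excluded a fall or a rise of 2-fold.

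*Cd22* and *Cd37* had the largest positive changes of the 9 genes in both comparisons with sham apart from *Cr2* in non-OB grafts, and neither was called. CD22 is a sialic-acid binding lectin that dampens antigen-receptor signalling, and CD37 is a tetraspanin of B cells that T cells and myeloid cells carry too. *Cd22* gave log2 signals of 9.23, 9.73 and 9.75 in OB, 8.94, 9.20 and 9.81 in non-OB and 8.29, 8.76 and 9.43 in sham. OB 2 and OB 3 lay above every sham lung, while OB 1 lay below sham 3. The change in OB against sham was 0.75 (95% interval -0.06 to 1.55, adjusted p = 0.292 in limma), with 0.96 and 0.56 from the other probes of the gene. The third *Cd22* probe was not well above background in non-OB 2. *Cd37* gave 11.12, 11.87 and 11.35 in OB, 11.22, 10.98 and 11.81 in non-OB and 10.19, 10.80 and 11.14 in sham. All but 1 graft of each group lay above every sham lung, the exceptions being OB 1 and non-OB 2. Its change was 0.73 in OB against sham (-0.04 to 1.51, adjusted p = 0.281 in limma) and 0.62 in non-OB against sham (-0.15 to 1.40, adjusted p = 0.368). The second *Cd37* probe was the single B-cell probe of 14 with an unadjusted p under 0.05 in any comparison, with a change of 0.86 in OB against sham (0.04 to 1.69, adjusted p = 0.233 in limma), beside 19.8% of all probes.

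*Pax5* differed least between lungs. Its log2 signal was 5.77, 6.18 and 6.19 in OB, 5.76, 6.21 and 6.57 in non-OB and 6.10, 6.07 and 6.12 in sham. The sham lungs lay within 0.05 of each other and inside the span of both allograft groups. Its intervals lay inside a 2-fold change in either direction in all 3 comparisons, and the limit farthest from 0 was -0.69, in OB against non-OB.

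**Figure D2:**
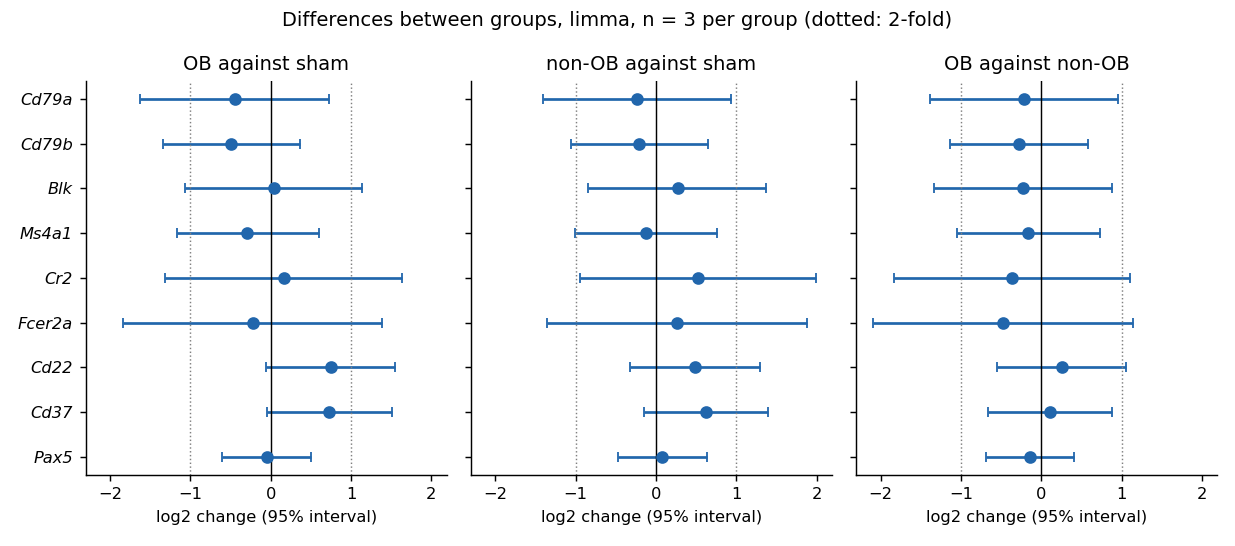
The log2 change of each B-cell gene in the 3 comparisons, with its 95% interval from limma (n = 3 lungs in each group), where 0 is no difference and the dotted lines mark 2-fold. All 27 intervals include 0, and those of *Cr2* and *Fcer2a* are the widest.

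Read across the 9 genes, the intervals bound what these arrays could show. In OB against sham, 4 genes had an interval that excluded a 2-fold rise and 3 had one that excluded a 2-fold fall. In non-OB against sham the counts were 4 and 5, and in OB against non-OB they were 6 and 3. The limits reached from -1.84 to 1.63 in OB against sham, from -1.41 to 1.99 in non-OB against sham and from -2.10 to 1.14 in OB against non-OB. A difference of moderate size in either direction was therefore not detectable for most of the genes with 3 lungs in a group.

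The B-cell genes rose and fell together from lung to lung inside each group. After each gene was centred on its own mean, the mean over the 9 genes, called the B-cell level here, was -0.71, 0.46 and 0.10 in the OB grafts, -0.09, -0.20 and 0.64 in the non-OB grafts and -0.73, 0.07 and 0.46 in the sham lungs. The lowest lungs were thus sham 1 and OB 1, and the highest were non-OB 3, OB 2 and sham 3. In OB 2 and non-OB 3 all 9 genes were above their own mean, and in OB 1 and sham 1 none was. The group means of the level, -0.05 ± 0.60 (SD, n = 3) in OB, 0.12 ± 0.46 in non-OB and -0.07 ± 0.61 in sham, lay closer together than the lungs of any group, whose range was 1.17, 0.84 and 1.19. In bulk lung RNA, fewer B cells and less of these transcripts per B cell cannot be told apart.

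**Figure D3:**
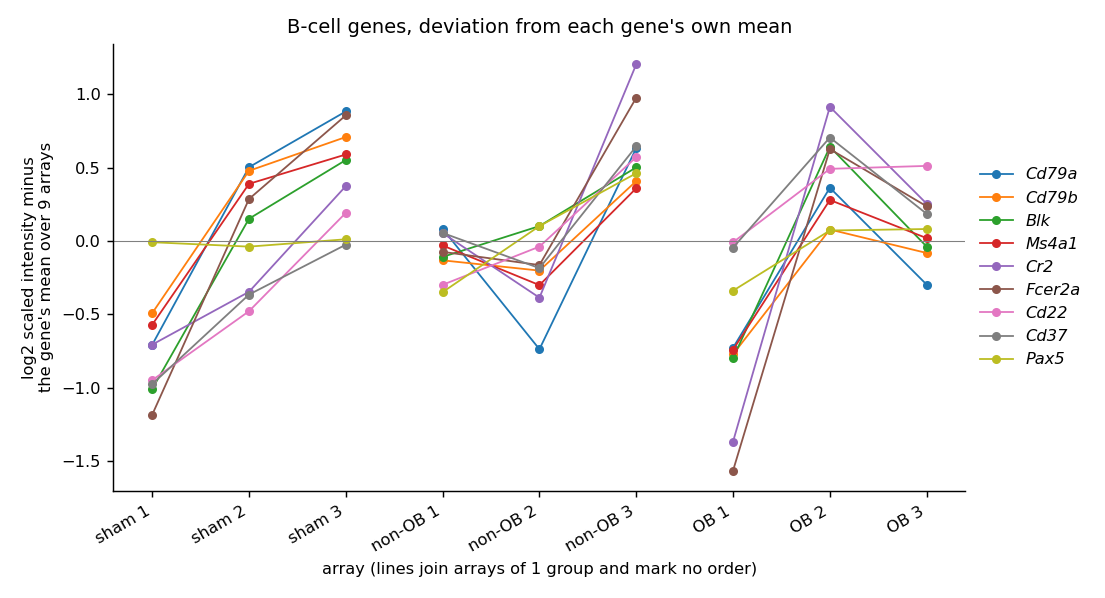
The log2 signal of each B-cell gene on each array minus that gene's mean over the 9 arrays (vertical axis, log2 units), with the arrays along the horizontal axis and 1 colour for each gene. The lines run together inside each group except that of *Pax5*, which is flat across the sham lungs, and the low lungs are sham 1 and OB 1.

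Over the 9 arrays, the 36 pairs of B-cell genes had correlations (Pearson's r) from 0.34 to 0.97 with a median of 0.69. These are descriptions over arrays that also share their scaling. With each gene's group means removed, the median was 0.88, and all 28 pairs without *Pax5* had an r of at least 0.79. *Fcer2a* followed the mean of the other genes most closely (r = 0.97) and *Pax5* least (r = 0.59), with *Cd22* (0.65) and *Cd37* (0.69) next. The spread within groups was larger than usual for most members. Among the 9 genes, 8 had a pooled within-group SD above 0.29, the median of probes that were well above background on all arrays. The SD was 0.98 for *Fcer2a*, above that of 96.9% of those probes, 0.89 for *Cr2*, 0.70 for *Cd79a*, 0.49 for *Cd79b* and 0.27 for *Pax5*.

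The median signal of the arrays moved with the B-cell level in part. It was 110 on OB 2 and 124 on non-OB 3, the highest of all, and 72.5 on OB 1, the lowest, but 82.9, 81.5 and 88.1 on the sham arrays, whose B-cell levels differed as much as those of the OB grafts. With the 75th percentile in place of the trimmed mean for scaling, the B-cell level was -0.53, 0.36 and 0.12 in OB, 0.01, -0.13 and 0.46 in non-OB and -0.76, 0.08 and 0.38 in sham. The order of the lungs inside each group was kept, and the range in each group was narrower. The part of array brightness in the spread was not tested.

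Among the sham lungs, sham 1 had less signal than both others for 8 of the 9 genes, and sham 3 had the most for all 9. The log2 difference of sham 1 from the mean of sham 2 and sham 3 was -1.76 for *Fcer2a*, -1.40 for *Cd79a*, -1.36 for *Blk*, -1.09 for *Cd79b* and -1.06 for *Ms4a1*, with 0.00 for *Pax5*. Its median over the 9 genes was -1.06, beside 0.05 for all probes, and 32.5% of all genes were lower in sham 1 than in both others. None of the 9 differences was called in limma (0 genes with an adjusted p under 0.05, against 10 of all probes, and 1 gene, *Cd79b*, with an unadjusted p under 0.05). In this fit sham 1 is a single array that is assumed to vary like the others, so the lack of calls says little about its difference. Sham 1 is also the lung that the study's clustering gives as C57BL/10, and with a single lung of that strain, strain and animal cannot be told apart. Against sham 1 alone the median change of the 9 genes was 0.64 in OB and 1.00 in non-OB, with 0 genes called in either.

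The arrays lay on 4 slides, and comparisons within a slide gave the same lack of a common direction. On slide 1, which held OB 1, non-OB 1, sham 1 and sham 2, 7 of the 9 genes were lower in OB 1 than in the mean of both sham lungs (median -0.63), and 7 were higher in non-OB 1 than in these (median 0.32). Of the OB and non-OB grafts that shared a slide, 7 genes were lower in OB on slide 1 (median -0.69) and 7 on slide 2 (median -0.27), whereas 7 were higher in OB on slide 3 (median 0.37). OB 2 and non-OB 3, the grafts with the highest B-cell level, shared slide 2. *Cd22* was higher in OB on slide 1, by 0.71 against sham and by 0.30 against non-OB, and on slide 3, by 0.55, and differed by -0.07 on slide 2. The probes of *Cd22* differed on slide 1, where the second was lower in OB 1 (8.53) than in non-OB 1 (8.91). The third was higher there (5.17 against 4.87).

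Promoter sequences are shown for *Cd79a*, whose changes went with those of *Cd79b* and *Ms4a1*, and for *Cd22* and *Cd37*, whose changes lay apart from theirs. RefSeq's table for GRCm38.p6 held promoters for 6 of the 9 genes, in 8 windows because *Fcer2a* has several starts. Each run below is the 250 bases before the start of the gene, read 5′ to 3′ on the strand of the gene, and capitals mark the matches described after them. The windows are chr7:24897247-24897496 on the plus strand for *Cd79a*, chr7:30879029-30879278 on the minus strand for *Cd22* and chr7:45238840-45239089 on the minus strand for *Cd37*.
Cd79a: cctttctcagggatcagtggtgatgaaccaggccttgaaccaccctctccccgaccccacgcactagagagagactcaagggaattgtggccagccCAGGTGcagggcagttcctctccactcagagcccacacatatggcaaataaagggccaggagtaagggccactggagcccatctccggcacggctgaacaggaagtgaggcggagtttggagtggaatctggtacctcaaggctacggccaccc
Cd22: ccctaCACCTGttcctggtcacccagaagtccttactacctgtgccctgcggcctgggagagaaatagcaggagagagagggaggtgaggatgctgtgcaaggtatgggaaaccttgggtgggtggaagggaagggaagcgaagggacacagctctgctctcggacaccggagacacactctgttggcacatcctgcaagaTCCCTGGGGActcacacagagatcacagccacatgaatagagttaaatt
Cd37: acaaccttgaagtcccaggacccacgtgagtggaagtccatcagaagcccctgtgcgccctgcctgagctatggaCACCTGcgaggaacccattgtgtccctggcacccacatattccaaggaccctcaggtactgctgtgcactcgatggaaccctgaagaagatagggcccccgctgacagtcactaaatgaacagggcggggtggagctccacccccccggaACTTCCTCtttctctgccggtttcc

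The letters searched for on both strands were ATGCAAAT, the octamer of POU factors, the EBF1 palindrome, CAGGTG for E2A, GAGGAAGT for PU.1 and CCGGAAGT for other Ets factors. No matches of different motifs overlapped in these windows. CAGGTG was found in 5 of the 8 windows, those of *Cd79a*, *Cd22*, *Cd37* and *Cr2* and a window of *Fcer2a*, and in 17.2% of all 32851 promoter windows of the same length. The EBF1 letters were found in *Cd22* alone among the 6 (0.779% of all windows), and the PU.1 letters in *Cd37* alone (2.44%). The octamer (1.6% of all windows) and the Ets letters (2.88%) were in none of the 8 windows. *Pax5* had no match. These are matches of letters, and binding was not measured.

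Since *Cd22* and *Cd37* kept apart from the receptor genes, each gene was also taken relative to *Cd79b* on the same array, a step chosen after the values were seen. The log2 difference between *Cd22* and *Cd79b* was -3.12, -3.47 and -3.29 in OB, -4.06, -3.72 and -3.72 in non-OB and -4.34, -4.84 and -4.40 in sham. Every OB graft lay above every non-OB graft, and every non-OB graft lay above every sham lung. The mean was higher by 1.23 in OB than in sham, by 0.69 in non-OB than in sham and by 0.54 in OB than in non-OB. *Cd37* relative to *Cd79b* gave -1.23, -1.34 and -1.70 in OB, -1.77, -1.95 and -1.72 in non-OB and -2.44, -2.80 and -2.69 in sham. The groups were again fully separated in the same order, by 1.22 in OB against sham, 0.83 in non-OB against sham and 0.39 in OB against non-OB, and the second *Cd37* probe gave 1.35, 0.91 and 0.44 with groups that were separated too. The other probes of *Cd22* differed in this. The second was separated in OB against sham (1.44) and in non-OB against sham (1.09) and overlapped in OB against non-OB (0.35), and the third was separated in OB against sham alone (1.04).

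For comparison, the same difference for *Cd79a* was -5.52, -5.29 and -5.78 in OB, -5.36, -6.10 and -5.34 in non-OB and -5.77, -5.54 and -5.39 in sham, with overlapping groups, and that for *Ms4a1* differed by 0.20 between OB and sham. Of the 8 genes, 4 had groups that did not overlap in OB against sham (*Cd22*, *Cd37*, *Ms4a1* and *Blk*), 4 in non-OB against sham (*Cd22*, *Cd37*, *Cr2* and *Blk*) and 2 in OB against non-OB (*Cd22* and *Cd37*), all with the higher values in the group named first. Relative to *Cd79b*, 14.0%, 7.77% and 5.08% of all genes were separated upwards in these comparisons. The exact two-sided permutation p of a separated difference is 0.10, the smallest that 3 lungs against 3 allow, and it follows from the separation for which these genes were picked. In a limma fit of all probes relative to *Cd79b*, the change in OB against sham was 1.23 for *Cd22* (95% interval 0.29 to 2.17, adjusted p = 0.142) and 1.22 for *Cd37* (0.29 to 2.15, adjusted p = 0.144), so neither was called, beside 4.05% of all probes called higher in that fit. The same *Cd79b* values enter every probe of that fit, so the spreads of the probes are not independent. Its intervals can therefore be too narrow and its p-values too small, here and below. *Cd22* and *Cd37* were each called in 1 of 16 other settings of this fit, the one without sham 1 (1.32 with adjusted p = 0.0351 for *Cd22* and 1.32 with 0.0329 for *Cd37*). These differences are a description, and which gene of a pair differed cannot be read from them.

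**Figure D4:**
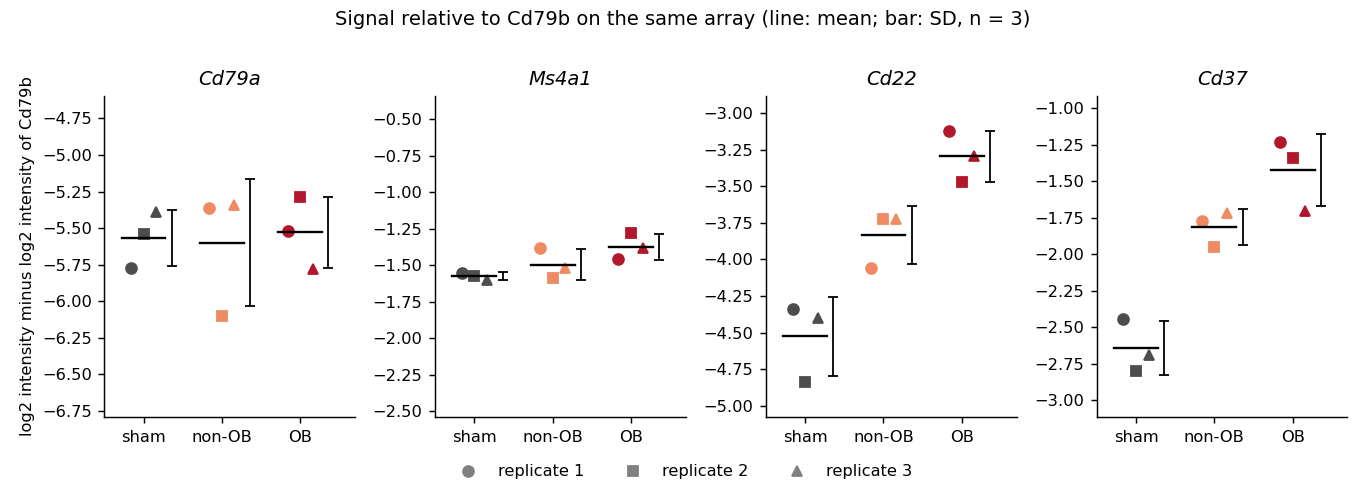
The log2 signal of 4 B-cell genes minus that of *Cd79b* on the same array, for the sham, non-OB and OB groups, with 1 point for each lung, the mean as a line and the SD as a bar. The groups overlap for *Cd79a*, and they separate in the order sham, non-OB, OB for *Cd22* and *Cd37*.

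*Tmem51os1* (r = 0.983), *Carns1* (0.975), *Glcci1* (0.97) and *Mtfmt* (0.969) were among the 5 other genes whose signals were most like the B-cell level over the 9 arrays, of 14738 named genes detected on each of them. *Tmem51os1* gave 6.03, 8.44 and 7.69 in OB, 6.99, 6.86 and 8.22 in non-OB and 5.82, 7.32 and 8.27 in sham. Like the B-cell level it was lowest in sham 1 and OB 1. None of these 4 genes was called in any comparison in limma, with adjusted p from 0.811 to 0.991 against sham, and their range over the arrays went from 0.69 for *Glcci1* to 2.62 for *Tmem51os1*.

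Some genes that signal downstream of the antigen receptor were called although its surface genes were not. The calls of this and the following lists were not kept with slide as a fixed block. In that fit 0 of the 41 list genes called in OB against sham and 0 of the 26 called in non-OB against sham were called in limma, with adjusted p from 0.0579 to 0.228 and from 0.089 to 0.184. Each kept its sign, and 40 of the 41 and all 26 kept a 2-fold change. That fit called 4 of all probes in OB against sham and 0 in non-OB against sham. It could thus call few genes of any kind, and whether the calls depend on the slide cannot be told from it. Of 18 genes in the BCR signalling list, 4 rose in OB against sham and none fell, beside 3.82% and 3.73% of all genes, with a median log2 change of 1.00. They were *Vav1* (1.63, adjusted p = 0.0222 in limma), *Blnk* (1.23, adjusted p = 0.0462), *Dapp1* (1.16, adjusted p = 0.0234) and *Malt1* (1.03, adjusted p = 0.0171), an exchange factor, a pair of adaptors and a protease of the pathway to NF-κB, which other leukocytes use as well. In non-OB against sham 1 of the 18 rose, *Malt1* by 1.14 (adjusted p = 0.0206 in limma), and none fell, beside 2.52% and 1.13% of all genes, with a median of 0.83. *Vav1* gave 12.95, 13.49 and 13.34 in OB and 11.08, 11.71 and 12.12 in sham, and did not overlap.

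Of 12 measured genes that restrain the receptor, 5 rose in OB against sham and 5 in non-OB against sham, and none fell. Of all genes, 3.82% and 2.52% rose in these comparisons. The largest changes in OB were those of *Cd5* (2.72, adjusted p = 0.00767 in limma), which T cells carry and which is also in the T-cell list, *Lair1* (2.45, adjusted p = 0.00224), a collagen receptor of many leukocytes, and *Cd72* (2.38, adjusted p = 0.0101), a B-cell lectin that macrophages and dendritic cells can express. *Cd72* gave 12.44, 12.64 and 12.10 in OB, 12.39, 11.44 and 12.17 in non-OB and 9.37, 10.13 and 10.55 in sham, so that each graft exceeded each sham lung. *Fcrla*, *Fcrl1* and *Fcrl5* gave -0.14, 0.38 and -0.18 and were not called.

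Among 15 transcription factors of B cells, 3 rose in OB against sham and none fell, beside 3.82% and 3.73% of all genes. They were *Ikzf3* (2.17, adjusted p = 0.00437 in limma), an Ikaros-family factor of lymphocytes, *Irf8* (1.41, adjusted p = 0.0289) and *Spi1* (1.40, adjusted p = 0.0271), both shared with myeloid cells. *Ikzf3* alone of the 15 rose in non-OB against sham, by 1.59 (adjusted p = 0.0209), beside 2.52% of all genes. *Ebf1*, which acts with PAX5 early in the lineage, gave -0.62 in OB (95% interval -1.19 to -0.04, adjusted p = 0.219).

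In the list for B-cell survival and homing, 2 of 17 measured genes rose in OB against sham and 1 fell. The shares of all genes were 3.82% and 3.73%. The chemokine *Cxcl13*, which draws B cells into follicles, gave 10.60, 10.48 and 9.26 in OB, 10.49, 10.13 and 9.41 in non-OB and 6.99, 6.53 and 7.26 in sham. Every graft lay above every sham lung, with changes of 3.18 in OB (adjusted p = 0.00657 in limma) and 3.08 in non-OB (adjusted p = 0.0126). *Ccl19*, a chemokine of lymphoid stroma, rose by 2.91 and 2.79, and *S1pr1*, the receptor by which lymphocytes leave tissue and which endothelium carries, fell by 1.55 in OB. The receptor for *Cxcl13* on B cells, *Cxcr5*, gave 0.34 (-0.48 to 1.17, adjusted p = 0.608) and the BAFF receptor *Tnfrsf13c* by 0.38 (-0.57 to 1.33).

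Of 12 plasma-cell genes, 4 rose in OB against sham and 4 in non-OB against sham, beside 3.82% and 2.52% of all genes. None of the 12 fell. *Jchain*, which joins the units of IgM and IgA, gave 13.90, 15.21 and 13.87 in OB, 14.74, 14.53 and 13.64 in non-OB and 9.45, 9.18 and 9.54 in sham. Every graft exceeded every sham lung by more than 4 on the log2 scale. The changes of *Jchain* were 4.93 in OB (adjusted p = 0.00163 in limma) and 4.91 in non-OB (adjusted p = 0.00305), and relative to *Cd79b* they were 5.42 and 5.12. *Slamf7*, which activated lymphocytes and macrophages also carry, rose by 2.98 and 2.60, and *Derl3*, of the protein quality control of the endoplasmic reticulum, by 1.95 and 1.91. *Sdc1* and *Xbp1*, which epithelium expresses too, gave -0.41 and -0.24 in OB and were not called.

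Of 14 germinal-centre genes, 4 rose in OB against sham and 2 in non-OB against sham, beside 3.82% and 2.52% of all genes. *Il21*, a cytokine of follicular helper T cells, stayed within background in the sham lungs, so its rise is given as a bound against the lowest signals that count as detected, at least 7.94-fold in OB (adjusted p = 0.000818 in limma) and at least 5.46-fold in non-OB (adjusted p = 0.00171). *Icos*, a co-stimulator on T cells, rose by 3.47 and 3.27 on the log2 scale, *Gcsam*, a germinal-centre B-cell gene measured above background on 2 of 3 sham arrays, by 2.53 in OB (adjusted p = 0.0329), and *Il21r* by 2.01 in OB. *Bcl6*, a transcriptional repressor of germinal-centre B cells, gave -0.67 in OB (adjusted p = 0.126).

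Markers of other cells also differed between grafts and sham lungs. The counts below stand beside 3.82% of all genes that rose in OB against sham and 2.52% in non-OB against sham. All 12 T-cell markers were well above background on every array, 10 of them rose in OB against sham and 6 in non-OB against sham, and the mean log2 signal of the list ran from 12.14 to 12.36 in OB, from 11.39 to 11.96 in non-OB and from 9.97 to 10.65 in sham. The largest change was that of *Cd8a*, 3.03 in OB (adjusted p = 0.00611 in limma), which relative to *Cd79b* was 3.52. Relative to *Cd79b*, 9 of the 12 T-cell genes were called higher in OB against sham, and *Cd4* (1.55, adjusted p = 0.132), *Cd2* (1.35, adjusted p = 0.134) and *Cd247* (0.38, adjusted p = 0.77) were not. These calls come from the fit whose p-values can be too small, in which 4.05% of all probes were called higher. Of 10 macrophage markers 3 rose in OB and 2 in non-OB, led by *Cd68* (2.29, adjusted p = 0.00153), and their mean ran from 12.35 to 12.66 in OB, from 12.07 to 12.57 in non-OB and from 11.35 to 11.73 in sham. Of 8 tetraspanins of leukocytes, *Tspan33* (2.05) and *Cd53* (1.33) rose in OB. The part of these cells in the values of *Cd37*, *Cd22* and the signalling genes was not tested.

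Follicular dendritic cell markers were not all measurable. For the counts that follow, 3.82% of all genes rose and 3.73% fell in OB against sham, and 2.52% rose in non-OB against sham. Of 6 measured genes only *Cxcl13* rose, in both graft groups, and *Madcam1* and *Coch* were not well above background on any OB or sham array, with the list mean at 9.46 to 9.85 in OB, 9.67 to 10.24 in non-OB and 9.03 to 9.18 in sham. Of 7 genes of lymph node stroma and venules, *Ccl19* and *Fut7* (1.62, adjusted p = 0.0229 in limma) rose in OB, and *Ackr4* (-3.02, adjusted p = 0.0151) and *Chst4* (-1.74, adjusted p = 0.0377) fell. *Ackr4* was well above background in 2 of 3 OB grafts and *Chst4* in 1 of 3, so these changes rest partly on signals within background. Their mean ran from 9.43 to 9.71 in OB, from 9.20 to 9.54 in non-OB and from 9.25 to 9.41 in sham. Of the lung markers, *Sftpc* of alveolar epithelium gave means of 18.71 ± 0.09 (SD, n = 3) in OB and 18.57 ± 0.12 in sham, and *Cdh5* of endothelium fell by 1.48 in OB (adjusted p = 0.00573). The mean over the 7 lung markers was 14.15 to 14.86 in OB, 14.71 to 15.26 in non-OB and 15.29 to 15.51 in sham. The lowest of these, 14.15, was OB 2, where the lung marker *Scgb1a1* was 14.20, beside 17.91 to 18.66 on the other arrays. *Vpreb3* gave -0.89 in OB against sham (-2.12 to 0.35), and *Igll1*, of the surrogate light chain, was below background on all arrays.

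**Figure D5:**
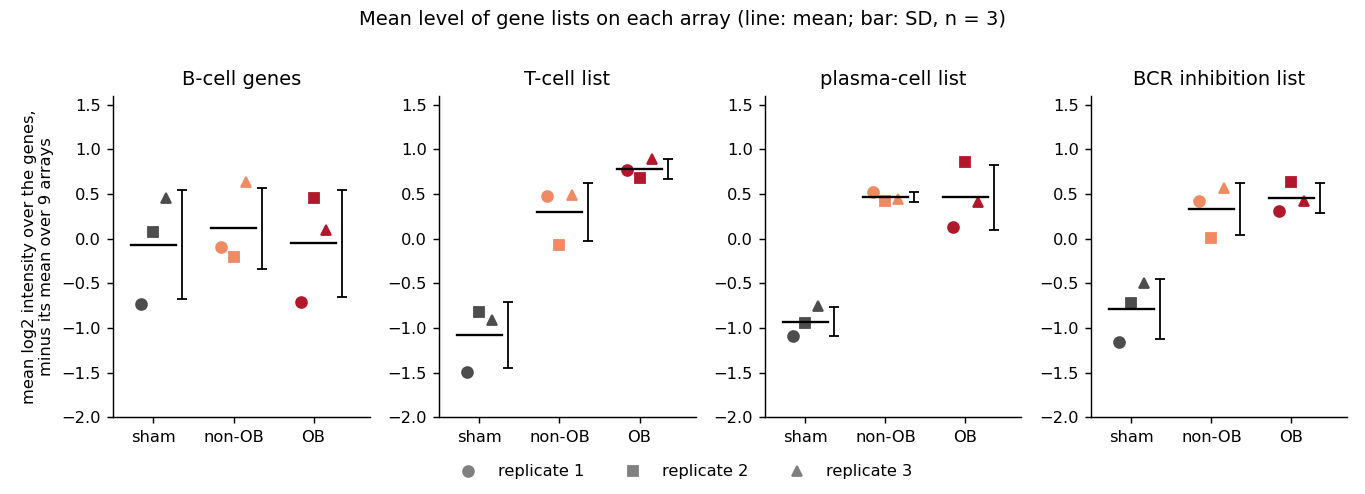
The mean log2 signal of the 9 B-cell genes and of 3 lists on each array, minus its mean over the 9 arrays, for the sham, non-OB and OB groups, with 1 point for each lung, the group mean as a line and the SD as a bar. The B-cell genes overlap between groups from -0.73 to 0.64, whereas every graft lies above every sham lung for the T-cell, plasma-cell and BCR inhibition lists. Not every list separated in this way. The B-cell transcription factor list, not shown, had means from 9.94 to 10.72 in OB and from 9.54 to 10.21 in sham.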

How the data were processed

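RNA of homogenised lung tissue was hybridised to Agilent SurePrint G3 mouse arrays, 1 dye and 1 array for each of 9 lungs. Per the submitters' processing notes the scans were extracted with Agilent Feature Extraction 12.0.3.1, which subtracts background and corrects spatial trends, and the authors deposited the resulting intensity of each spot. The log2 values used here were computed from the deposited signals after scaling each array by 1 factor (1.24 to 2.05) so that its mean, trimmed by 2% at each end, was 2500, as in the authors' value table (largest relative difference 5.0e-10). Their log2 values were not otherwise normalized. Control spots (3671 on each array) and 53 to 111 outlier spots on an array were left out, spots of a probe were averaged, and 56601 probes were tested. From 58.6% to 69.6% of spots were well above background, and the number of arrays limits the precision.

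The B-cell genes and the gene lists were chosen with earlier results of these data known. Groups came from the sample labels. limma 3.58.1 in R 4.3.3 (lmFit, eBayes) was fitted with 1 mean for each group on all 9 arrays, with Benjamini-Hochberg adjustment over all probes, so an adjusted p in the text is from this fit unless said otherwise. Per the study's methods RNA was purified separately from individual mice, chosen by the study as representative. The p-values measure the spread between arrays of different mice in a group. The arrays of each group lay on several slides and this fit has no slide term, so that spread holds any slide differences as well. Probes took gene names from their accessions by way of RefSeq (GRCm38.p6): 32991 probes and 22909 genes were named. No probe positions are given, since the array design used another build. Of each list, counts are given and up to 3 called genes with the largest change in OB against sham, or its first genes where none was called. *Malt1*, *Fcrla*, *Fcrl1*, *Fcrl5*, *Ebf1*, *Cxcr5*, *Tnfrsf13c*, *Sdc1*, *Xbp1*, *Il21r*, *Bcl6*, *Cd4*, *Cd2*, *Cd247*, *Madcam1*, *Coch* and *Scgb1a1* were named after their values were seen. Of the immunoglobulin list, 2 of 13 genes could be named by accession, and the constant regions were not analysed here. The fits were tested on simulated data. Python 3.11.15, pandas 2.3.3, numpy 2.4.6, scipy 1.17.1, matplotlib 3.10.9 and statmod 1.5.0 were used beside R. A reference gene tried for the values relative to *Cd79b*, under which the differences were smaller, is not reported here. Alternatives were other scalings, background corrections, filters, a pseudocount, spread models, thresholds, blocks, the methods' t-test, the mean of all probes of a gene, sham 1 alone, and each array left out in turn.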

Additional observations from a re-analysis of the deposited data

How the results depend on the processing

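None of the 9 B-cell genes was called in any of the 3 comparisons under the 25 other settings of the fits, but 49 of 639 gene changes took the other sign, 30 of them with an array left out, and 7 of 27 gene changes never did. Some of the 639 could not change sign, because the setting leaves the log2 change as it is. Examples are another spread model and a left-out array of the group outside the comparison. The lack of calls is no sign of stability where a setting called few or none of all probes, as with slide as a fixed block (4 and 0 against sham), the methods' t-test after adjustment in non-OB against sham (0) and each adjusted test in OB against non-OB (0). The random slide block, with an estimated correlation of 0.458 within slides, left 1983 probes higher and 2161 lower in OB against sham. In OB against sham, *Pax5* was 0.01 with 75th percentile scaling, *Blk* was -0.08 with quantile normalization and -0.03 with normexp before it, and with slide as a fixed or random block *Blk* was -0.14 or -0.12 and *Cr2* -0.31 or -0.13. In non-OB against sham, *Pax5* was -0.10 with quantile normalization and -0.26 or -0.08 with slide as a fixed or random block, under which *Fcer2a* was -0.13 or -0.02. With sham 1 as the only sham array, the median change was 0.64 in OB, with *Cd79a* at 0.48, *Cd79b* at 0.24, *Ms4a1* at 0.42 and *Fcer2a* at 0.95, and 1.00 in non-OB, with *Cd79a* at 0.69, *Cd79b* at 0.52 and *Ms4a1* at 0.58. The cause of these shifts was not tested. With each array left out in turn, the medians ran from -0.41 to 0.40 in OB against sham, from -0.19 to 0.59 in non-OB against sham and from -0.45 to 0.14 in OB against non-OB. The ranges of genes that changed sign in OB against sham were -0.64 to 0.01 for *Ms4a1*, -0.33 to 0.81 for *Cr2*, -0.81 to 0.44 for *Fcer2a*, -0.41 to 0.40 for *Blk* and -0.13 to 0.08 for *Pax5*. In non-OB against sham they were -0.70 to 0.13 for *Cd79a*, -0.57 to 0.03 for *Cd79b*, -0.48 to 0.10 for *Ms4a1*, -0.33 to 0.69 for *Fcer2a*, -0.19 to 0.59 for *Blk* and -0.11 to 0.29 for *Pax5*. In OB against non-OB they were -0.58 to 0.11 for *Cd79a*, -0.37 to 0.14 for *Ms4a1*, -0.10 to 0.35 for *Cd37*, -0.85 to 0.29 for *Cr2*, -0.91 to 0.18 for *Fcer2a*, -0.58 to 0.14 for *Blk* and -0.35 to 0.06 for *Pax5*. Relative to *Cd79a* or *Ms4a1* in place of *Cd79b*, *Cd22* was higher by 1.20 or 1.03 in OB against sham (adjusted p = 0.554 or 0.339 in limma) and *Cd37* by 1.18 or 1.02 (adjusted p = 0.564 or 0.335), and with slide as a fixed block by 1.27 and 1.31, and neither was called.

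Arrays of the same replicate number had correlated deviations from -0.40 to 0.28, so the numbers are not taken as pairs, and with the replicate block 0 of the 9 genes were called in each comparison. Of all probes, 1539 rose and 1376 fell in OB against sham without the block and 1218 and 883 with it. Signal over background limits the third *Cd22* probe and *Il21*, *Gcsam*, *Ackr4*, *Chst4*, *Madcam1*, *Coch* and *Igll1*.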
